A study of Mus musculus with 15 samples.

Results

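The Zfp genes are mouse genes named for the zinc fingers of the proteins they encode, and 206 of them are described here, across immature and mature oocytes. Out of 18193 genes named alone by a probe set, they were chosen by their symbol, Zfp followed only by digits (Zfp57 was left out), and selected on their mean level over the 15 arrays, which had to reach the median of all probe sets, a log2 value of 3.07. Where several probe sets name a gene, the one brightest on average stands for it. The array carries 304 such genes on 574 probe sets, so 98 lay below the threshold. Because 13 of the 15 arrays are of mature oocytes, a gene with signal in immature oocytes alone could miss the threshold. For 6 members (Zfp788, Zfp41, Zfp777, Zfp524, Zfp108 and Zfp28) the MII arrays alone averaged below it, at 2.75 to 3.03, so the GV arrays carried them over and their lower MII levels are built into the choice.

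The series compared pooled oocytes of B6D2F1 hybrid females at 3 ages, by stage and by where they matured. In vivo matured metaphase II oocytes (MII, the ovulated egg) came from adults aged 7 to 8 weeks (n = 3) and from day 26 females (d26, n = 2), after pregnant mare serum gonadotropin (PMSG, which drives follicle growth) and human chorionic gonadotropin. In vitro matured MII oocytes came from adults (n = 2), d26 females (n = 3) and day 20 females (d20, n = 3) after PMSG and 16 h in Gmat culture medium. Adult germinal vesicle oocytes (GV, n = 2), which still hold the intact nucleus of meiotic arrest, were collected 48 h after PMSG. Hyaluronidase removed the surrounding somatic cumulus cells, and RNA of 150 oocytes a pool was captured on oligo(dT) and amplified over a pair of cycles. Nothing in the labels tells separate animals from shared ones, so a p-value here reflects only how far these pools spread, part of which may be technical. Capture by the poly(A) tail also means that less RNA and a smaller captured share of it cannot be told apart, and in pools neither can fewer contributing cells and less RNA in each.

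Most proteins of this family bind DNA through tandem C2H2 zinc fingers, each finger reading a few bases. Many carry a KRAB domain, which recruits the co-repressor KAP1 (Trim28) and, through it, a histone methyltransferase that silences retrotransposons and holds imprinted regions. Other members activate genes, bind RNA or act in protein modification. The growing oocyte stores mRNA and is nearly silent in transcription when it resumes meiosis, so its stored mRNA is then controlled mainly by adenylation and decay. Many KRAB members sit in clusters of near copies, so signal of one may include that of its relatives. Probe sequences were not used here, and 18 of the 206 members rest on a probe set whose suffix (s or x) marks probes shared with other transcripts.

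Brightness differed between arrays. Deposited intensities above 200 numbered 2615 to 3042 probe sets on 4 dim arrays (replicate 1 of adult in vivo MII, replicate 2 of adult in vitro MII and both replicates 2 and 3 of d26 in vitro MII), against 4882 to 6734 on the other MII arrays and 9819 and 9696 on the GV arrays. Values below are log2 intensities after quantile normalization, so each is a level relative to the other transcripts of that array. All 12 oocyte markers reached the threshold, and 7 were lower in adult MII oocytes by either route than in GV oocytes. Of 12 listed cumulus and granulosa markers, 10 were named alone by a probe set (not Cyp19a1 and Lhcgr) and 8 reached the threshold. Summed intensities of these 10 were 309 to 507 on MII arrays and 164 to 212 on GV arrays. For 10 leukocyte markers, 5 of them at the threshold, the sums were 256 to 724 on adult in vivo arrays, 117 to 225 on the other MII arrays, and 81.5 and 83.4 on GV arrays. Over 8 oviduct markers, 4 of them at the threshold, a single gene, Cdh1, made up 82.6% to 99.04% of each array's sum. The other 7 summed to 153 to 494 on adult in vivo MII arrays, 32.4 to 148 on the other MII arrays, and 95.5 and 107 on GV arrays, with Ovgp1 highest in adult in vivo MII and Krt8 highest in GV oocytes. Below the threshold lay Amh and Inhba of the cumulus list, Ptprc, Itgam, Tyrobp, Fcer1g and Cd52 of the leukocyte list, and Foxj1, Krt18, Muc1 and Wfdc2 of the oviduct list. The part of these cells in the results below was not tested.

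The 206 members spanned the range of the arrays. Mean levels were at or above 10 in 10 members, from 8 to under 10 in 32, from 6 to under 8 in 44, from 4 to under 6 in 77 and under 4 in 43, with a median of 5.64. Only 124 members were at or above the threshold on all 15 arrays. The lowest members included were Zfp28 at 3.16, Zfp579 at 3.14 and Zfp142 at 3.09, and the first ones left out were Zfp180 at 3.05, Zfp950 at 3.04 and Zfp697 at 3.03. Replicates spread less for abundant members: the median within-group SD was 0.34 for members at or above 8 and 0.73 for those under 4. Levels of different probe sets are not on one scale, so this order ranks probe signal and not transcript number.

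**Figure D1:**
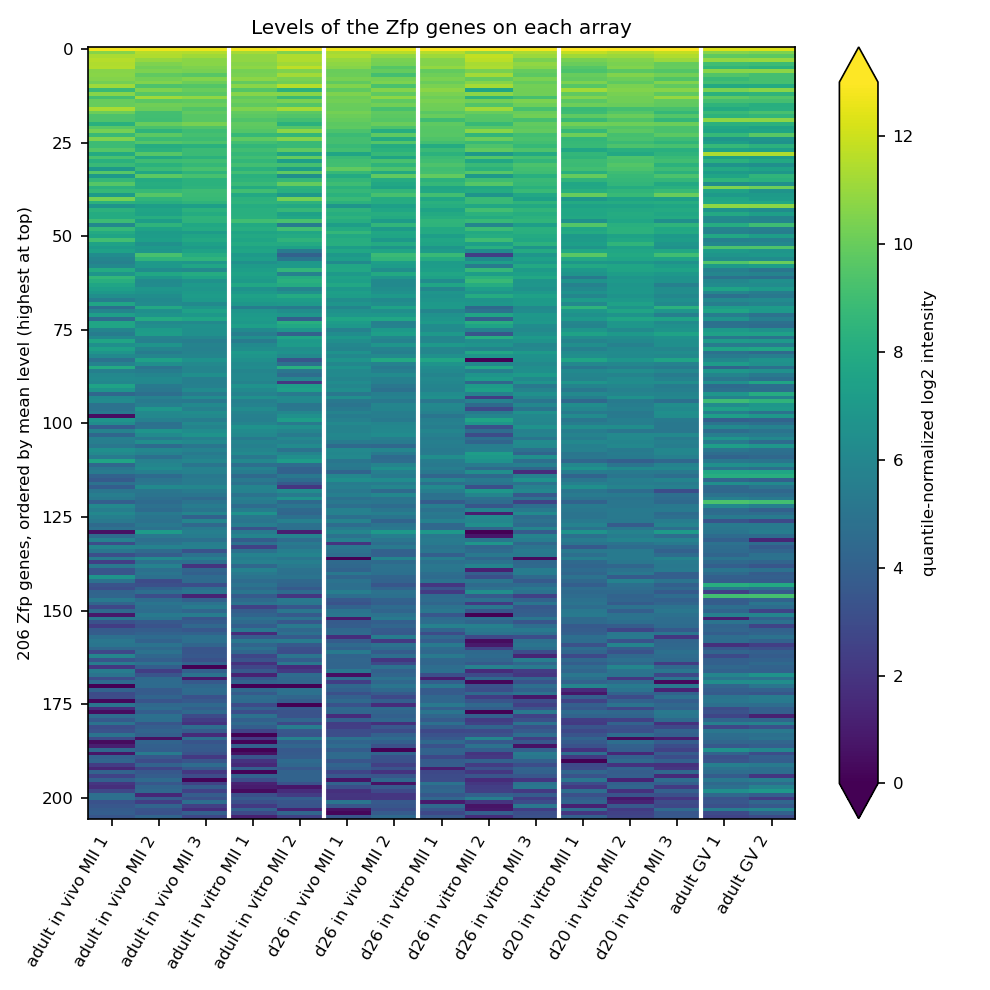
Quantile-normalized log2 intensity of the 206 Zfp genes (vertical, ordered by mean level) on each of the 15 arrays (horizontal), with white lines between the 6 groups and colours past 0 and 13 drawn as the end colours. Some genes of middling rank are bright on both GV arrays and dark on all MII arrays, and low-ranked genes scatter between replicates.

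The member with the highest signal was Zfp655, whose human counterpart binds the signalling protein VAV. Its level was 12.77, 12.65 and 12.66 in adult in vivo MII, 12.71 and 12.88 in adult in vitro MII, 12.61 and 12.53 in d26 in vivo MII, 12.88, 12.85 and 12.77 in d26 in vitro MII, 12.97, 12.94 and 13.19 in d20 in vitro MII, and 12.31 and 12.29 in GV oocytes. Every MII array was above both GV arrays, yet by less than 1 on the log2 scale. The other 4 of the 5 highest were Zfp664 (mean 11.21), Zfp131 (11.04), a BTB-domain zinc finger protein, Zfp383 (10.89) and Zfp616 (10.43).

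Stretches upstream of 4 members are shown for what they illustrate: Zfp655 as the member with the highest signal, Zfp839 as the member with the largest fall, and Zfp979 and Zfp820 as members of neighbouring groups in which several genes were higher in MII oocytes. Each is the 250 bases before the RefSeq start on GRCm38.p6, read 5′ to 3′ on the gene's strand, with capitals marking the GC box (GGGCGG), the CCAAT box (CCAAT) or the ETS motif (CCGGAAG) on either strand. The locations are chr5:145231492-145231741 (+ strand) for Zfp655, chr12:110850029-110850278 (+ strand) for Zfp839, chr4:147642509-147642758 (- strand) for Zfp979 and chr17:21845760-21846009 (- strand) for Zfp820.
Zfp655: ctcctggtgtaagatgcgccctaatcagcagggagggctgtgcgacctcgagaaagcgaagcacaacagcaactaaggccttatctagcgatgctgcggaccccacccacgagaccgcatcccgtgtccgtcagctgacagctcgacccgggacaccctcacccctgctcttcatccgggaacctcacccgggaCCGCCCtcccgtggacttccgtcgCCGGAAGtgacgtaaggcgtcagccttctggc
Zfp839: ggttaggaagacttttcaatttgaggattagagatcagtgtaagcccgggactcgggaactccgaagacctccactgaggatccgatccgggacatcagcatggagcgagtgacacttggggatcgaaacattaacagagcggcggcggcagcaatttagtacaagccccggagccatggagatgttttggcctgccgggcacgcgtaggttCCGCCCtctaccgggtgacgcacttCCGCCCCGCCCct
Zfp979: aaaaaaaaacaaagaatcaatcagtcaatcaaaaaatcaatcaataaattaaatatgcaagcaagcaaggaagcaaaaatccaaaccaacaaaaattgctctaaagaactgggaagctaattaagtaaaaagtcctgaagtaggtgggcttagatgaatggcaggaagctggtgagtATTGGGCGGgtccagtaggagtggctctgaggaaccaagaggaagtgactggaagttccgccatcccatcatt
Zfp820: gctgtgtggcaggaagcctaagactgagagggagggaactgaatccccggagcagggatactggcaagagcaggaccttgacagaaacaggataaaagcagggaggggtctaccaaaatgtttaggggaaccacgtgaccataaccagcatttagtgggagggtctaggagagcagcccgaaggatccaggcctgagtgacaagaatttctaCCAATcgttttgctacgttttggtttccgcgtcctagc

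RefSeq promoter windows were found for 169 members, in 210 windows. A GC box was present within the 250 upstream bases in 47.1% of these windows, against 32.7% of all 32851 windows of the same length. The ETS motif was present in 17.1% of member windows and 6.91% of all windows, and the CCAAT box in 44.8% and 33.8%. The longer NRF1 motif was found in 2.86% and 0.782%, and the longer YY1 motif in 0.952% and 0.301%. A TATA box (TATAAA) was the one motif less frequent in the members, at 5.71% against 12.4%. Member windows also held a median of 12 CpG dinucleotides, against 6 in all windows. Motifs were searched on both strands and none contains another. These shares describe the letters of the windows, and several members share one ancestral cluster. The 32851 windows were not limited by signal on the arrays, while members had to reach the level threshold. The part of level in these contrasts was not tested. Members higher in adult in vivo MII oocytes (41 windows) had a GC box in 53.7%, a CCAAT box in 36.6% and an ETS motif in 17.1%. Members lower there (16 windows) had them in 25%, 62.5% and 37.5%. The NRF1 motif was in 7.32% and 6.25%, the TATA box in 7.32% and 0%, and the YY1 motif in neither set.

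In mature against immature adult oocytes, Zfp genes moved in both directions. Matured in vivo, oocytes had 38 members (18.4%) above and 15 (7.28%) below GV oocytes at an adjusted p below 0.05, against 15.7% and 11.1% of all 22519 tested probe sets (26.8% in either direction). Matured in vitro, they had 43 members (20.9%) above and 21 (10.2%) below, against 16% and 11.7% (27.7% in either direction). The median log2 difference was 0.26 over members and 0.24 over all tested probe sets in vivo, and 0.34 and 0.13 in vitro. With 1 probe set per gene, which is how the members were taken, the shares over 12028 genes were 18.3% higher and 12.3% lower in vivo, and 18.4% and 12.9% in vitro. The members' shares are near these backgrounds. Both comparisons use the same 2 GV arrays, so their values are given side by side and not as 2 independent results.

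The numbers of higher and of lower members both depended on how arrays were scaled. With the intensities as deposited, 0 members were higher and 29 lower in vivo, and 0 higher and 58 lower in vitro, where all tested probe sets had medians of -0.97 and -1.92. Of all tested probe sets, 0.102% were then higher and 15.1% lower in vivo, and 0.0488% and 27.1% in vitro. In limma, 0 members were then higher at an unadjusted p below 0.05 by either route, and 62 were lower in vivo and 80 in vitro. With each array centred on its median, 9 were higher and 34 lower in vivo, and 15 higher and 42 lower in vitro, with medians of all tested probe sets of -0.19 and -0.51. The background moved likewise, to 5.3% higher and 16.9% lower in vivo and 5.8% and 19.5% in vitro under median scaling. Of the 15 members lower in vivo, 13 were lower under all 3 scalings, and of the 21 lower in vitro all 21 were, but both other scalings move all probe sets downward, so this is no sign that falls depend less on scaling. None of the higher members passed with the intensities as deposited, and 13 of the 38 in vivo and 29 of the 43 in vitro then had a difference below 0. So "higher" below means higher relative to the other transcripts on an array. Single arrays also carried weight. With GV replicate 1 or GV replicate 2 left out, fewer members were higher by both routes. With adult in vitro replicate 2 left out, fewer were higher in vitro. Each of these fits leaves a single array in a group, and shares over all tested probe sets were not computed for it. These moves are therefore not read as a result about the members.

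**Figure D2:**
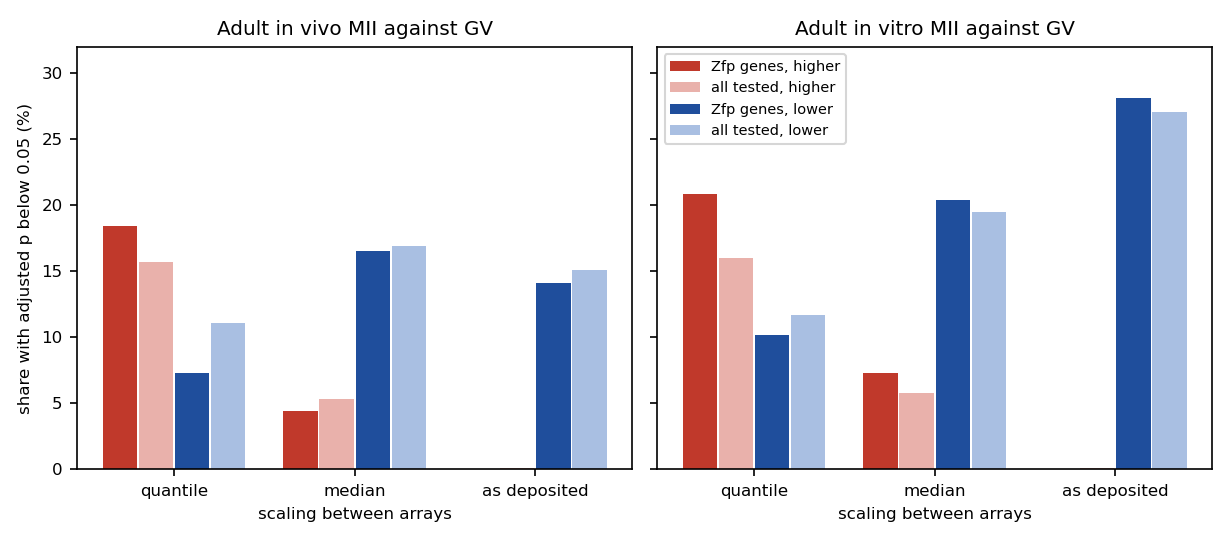
Share of the 206 Zfp genes and of all 22519 tested probe sets with an adjusted p below 0.05 (vertical, %), higher or lower in adult MII than in GV oocytes, under 3 scalings between arrays (horizontal). The shares of Zfp genes follow those of all probe sets from mostly higher to mostly lower, and the bars for higher shrink to 0 members with the intensities as deposited.

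Among the 38 members higher in vivo, the dim adult in vivo array was the highest of its 3 arrays in 26 (68.4%), against 55.6% of the 3542 probe sets called higher and 39.4% of all tested. Among the 43 higher in vitro, the dim array was the higher of 2 in 33 (76.7%), against 64.9% of the 3607 called higher and 47% of all tested. Without the 4 dim arrays, 52 members were higher and 24 lower in vivo, of which 36 and 15 were among the 38 and 15 above. Shares over all tested probe sets were not computed for this setting, so these counts are not read as a result about the members. The adult in vitro group is then left with a single array, so its counts are not read as a result either. The part of the dim arrays in the calls was not tested.

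Calls also followed level. Of the 42 members with a mean at or above 8, 21 were higher and 3 lower in vivo (50% and 7.14%), against 43% and 13% of all tested probe sets at that level. In vitro 23 were higher and 3 lower, against 41.5% and 12.4%. Of the 121 from 4 to under 8, 17 were higher and 10 lower in vivo (14% and 8.26%, against 13.4% and 14%) and 20 and 13 in vitro (16.5% and 10.7%, against 14.4% and 14.7%). Among the 43 members under 4 none was higher by either route, against 1.06% of all tested probe sets in vivo and 1.35% in vitro, and limma's unadjusted p was below 0.05 for 1 in vivo and 0 in vitro. Of these 43, 2 were lower in vivo (4.65%, against 4.7%) and 5 in vitro (11.6%, against 6.08%). Zfp108 is among the 2, and Zfp788, Zfp524 and Zfp108 are among the 5. The GV arrays carried these genes over the threshold, so their lower MII levels are built into the choice.

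**Figure D3:**
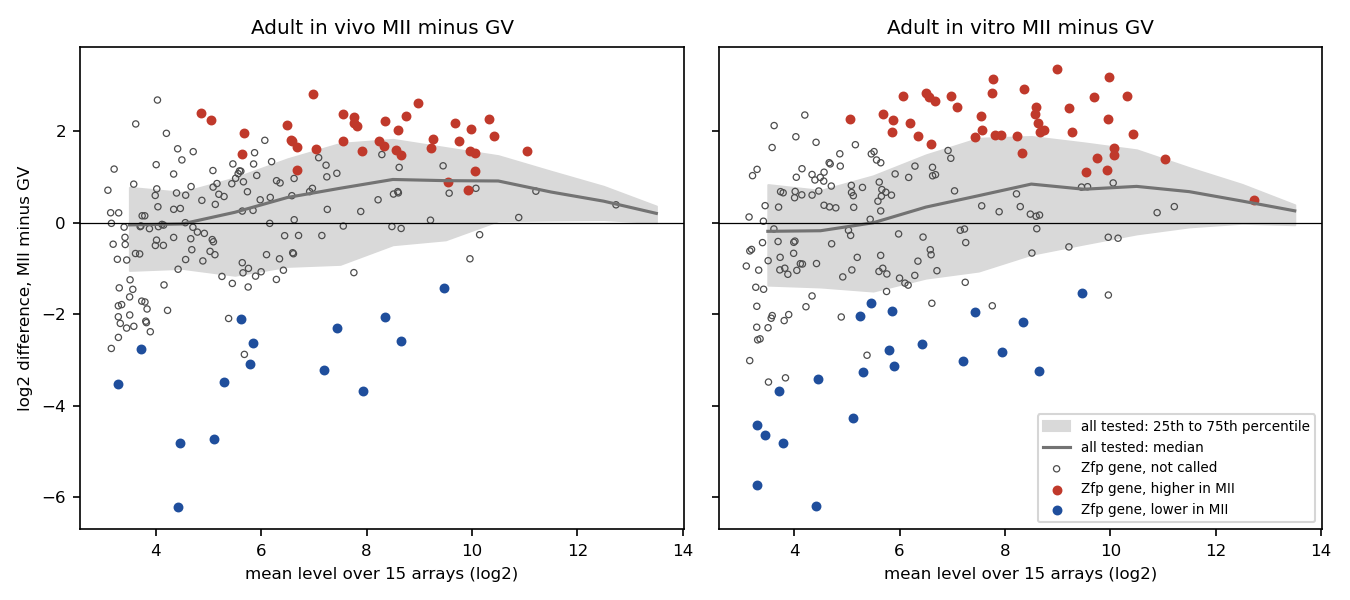
Log2 difference of adult MII minus GV oocytes (vertical) against the mean level over 15 arrays (horizontal) for the 206 Zfp genes, by in vivo (left) and in vitro (right) maturation, over the median and the middle range of all tested probe sets. No member under a level of 4 is among the higher calls, and at levels of 8 and above the median of all probe sets is itself above 0.

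Separation from GV oocytes was also counted over the MII arrays of all ages. All 13 MII arrays were above both GV arrays for 49 members (23.8%), against 18% of all tested probe sets, and below both for 36 (17.5%), against 15.8%. These background shares count every tested probe set of a gene, while a member rests on its brightest alone. They were not matched for level either. The members' shares are therefore not read as a result about them. The 36 include Zfp108, Zfp28, Zfp41, Zfp777 and Zfp788, which the GV arrays carried over the threshold. Their lower MII levels are built into the choice, so their separation is no result. GV oocytes came from adults alone, so for d26 and d20 oocytes stage and age cannot be told apart.

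The largest fall was that of Zfp839. Its level was 4.22, 3.14 and 1.30 in adult in vivo MII and 3.73 and 2.08 in adult in vitro MII, against 9.05 and 9.17 in GV oocytes. In d26 and d20 MII oocytes it ranged from 2.50 to 4.78. Every MII array lay below both GV arrays, and the MII replicates spread widely near the threshold. The log2 difference was -6.22 in vivo (SE 0.83, adjusted p = 9.28e-05) and -6.21 in vitro (SE 0.91, adjusted p = 0.000206).

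Zfp574 had the smallest p of all members in vivo, with replicates that lay close together. It stood at 6.72, 7.24 and 7.31 in adult in vivo MII and 8.05 and 7.86 in adult in vitro MII, against 10.78 and 10.76 in GV oocytes. The difference was -3.68 in vivo (SE 0.31, adjusted p = 3.78e-06) and -2.82 in vitro (SE 0.34, adjusted p = 5.73e-05). A second, dimmer probe set of this gene gave -4.002 and -3.75, both called. The in vivo arrays were all below the in vitro arrays, a point taken up with the maturation routes.

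Zfp958 and Zfp182 fell by more than 3 on the log2 scale by both routes. Zfp958 was at 3.92, 4.52 and 5.001 in adult in vivo MII and 5.43 and 4.44 in adult in vitro MII, against 9.33 and 9.08 in GV oocytes, with differences of -4.72 (SE 0.61, adjusted p = 7.75e-05) and -4.27 (SE 0.67, adjusted p = 0.000332). Zfp182 was at 3.36, 3.17 and 3.06 in vivo and 4.93 and 4.26 in vitro, against 8.17 and 7.87 in GV oocytes, with differences of -4.82 and -3.43. No MII reading of either gene reached its lower GV reading.

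Further falls covered members of several kinds. Zfp592, a partner of the chromatin reader ZMYND8 in human cells, was at 5.73, 7.05 and 6.83 in vivo and 6.51 and 6.95 in vitro, against 9.47 and 10.05 in GV oocytes. Its differences were -3.23 (adjusted p = 0.000131) and -3.03 (adjusted p = 0.000411), while 2 other probe sets of the gene gave -0.91 and -0.27 in vivo and were not called. Zfp110, which interacts with the neurotrophin receptor p75, was at 6.26, 5.32 and 5.23 in vivo and 5.60 and 6.18 in vitro, against 8.91 and 8.45 in GV oocytes. Here the probe sets concurred, at -3.08 and -3.15 in vivo and -2.79 and -3.11 in vitro. Zfp58 differed by -3.49 and -3.27, Zfp653 by -2.62 and -1.93, and Zfp472 by -2.31 and -1.95.

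Low-signal falls were less certain. Zfp108 differed by -3.52 in vivo (adjusted p = 0.0206) and -5.73 in vitro (adjusted p = 0.00167), with GV levels of 6.47 and 7.01. It is one of the members that the GV arrays carried over the threshold, as are Zfp788 and Zfp524. Its in vivo call was lost without adult in vivo replicate 3 (adjusted p = 0.066), GV replicate 1 (0.094) or GV replicate 2 (0.172). Zfp408, mutated in human retinal disease, differed by -2.76 in vivo (adjusted p = 0.0422), and by -1.71 (adjusted p = 0.121) without the dim in vivo array, on which it read 0.30. Its call was also lost without any one of 6 other arrays, with adjusted p between 0.0522 and 0.212. Zfp282, Zfp788 and Zfp524 differed by -4.81, -4.66 and -4.42 in vitro, where MII levels reached down to -0.34, -0.34 and 0.78. These calls did not hold without GV replicate 2, with adjusted p of 0.0731, 0.0702 and 0.0955, and Zfp788 differed by -2.70 (adjusted p = 0.165) without adult in vitro replicate 1 and had an adjusted p of 0.106 without GV replicate 1.

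**Figure D4:**
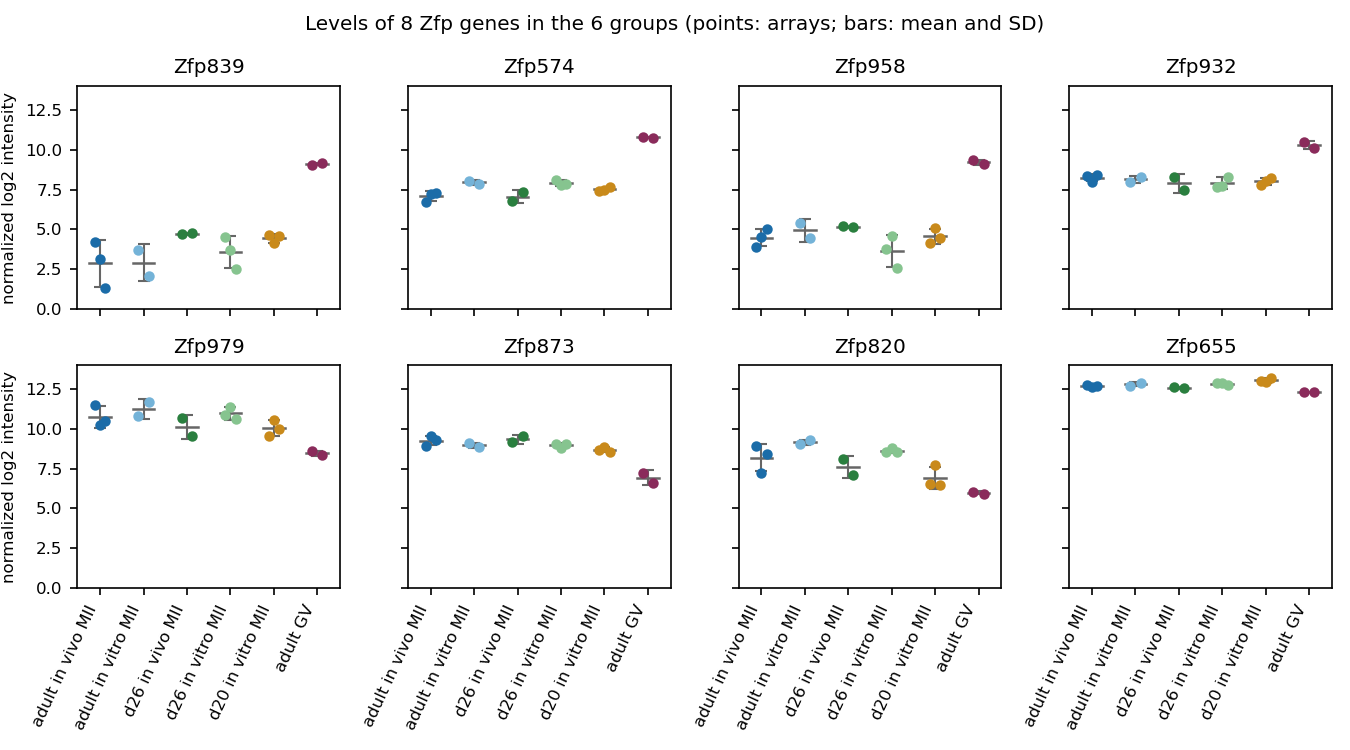
Normalized log2 intensity (vertical) of 8 Zfp genes in the 6 groups (horizontal), with arrays as points and the mean with its SD as bars (n = 3 or 2). Zfp839, Zfp574, Zfp958 and Zfp932 are lower on every MII array than on both GV arrays, and Zfp979, Zfp873, Zfp820 and Zfp655 are higher.

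Among rises in vivo, Zfp873 had the smallest p. It was at 8.93, 9.55 and 9.31 in adult in vivo MII and 9.07 and 8.83 in adult in vitro MII, against 7.25 and 6.61 in GV oocytes. The difference was 2.33 in vivo (SE 0.30, adjusted p = 7.69e-05) and 2.03 in vitro (SE 0.33, adjusted p = 0.000435). Unlike most of the higher members it was lower on the dim array of each adult MII group than on the others. Under median scaling it was 1.25 (adjusted p = 0.0866) and 0.61 (adjusted p = 0.457), and with the intensities as deposited the in vitro difference was -0.80 (adjusted p = 0.553).

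The largest rise in vivo was that of Zfp606, at 8.60, 6.90 and 7.55 in adult in vivo MII and 7.29 and 7.98 in adult in vitro MII, against 4.92 and 4.81 in GV oocytes. Differences were 2.82 (SE 0.54, adjusted p = 0.00126) and 2.77 (SE 0.59, adjusted p = 0.00264). This rise was also called under median scaling, at 1.99 and 1.58, but a second, dimmer probe set gave -0.48 and 0.88 and was not called. In vitro the largest was Zfp982, at 9.75 and 10.55 in vitro and 10.50, 8.84 and 8.89 in vivo, against 6.77 and 6.80 in GV oocytes. It differed by 3.37 in vitro (adjusted p = 0.000355) and 2.62 in vivo (adjusted p = 0.00103), and by 2.12 and 1.60 under median scaling, both called. Its probe set is of the shared kind (suffix x), and a second of that kind gave 0.81 and 1.07, not called.

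Zfp758 and Zfp735 were higher by both routes as well. Zfp758 was at 8.64, 7.48 and 7.93 in vivo and 8.11 and 9.004 in vitro, against 5.81 and 5.62 in GV oocytes, with differences of 2.30 and 2.84. Zfp735 differed by 2.19 and 2.76, and its in vivo call had an adjusted p of 0.057 without GV replicate 1. Zfp39 differed by 2.24 in vivo and 2.28 in vitro, and its calls were lost without GV replicate 2 (adjusted p = 0.107 and 0.113) and, in vitro, without adult in vitro replicate 2 (0.102). Zfp704 was higher in vivo alone at 2.40 (adjusted p = 0.0157), which rested on a GV value of 1.38: without GV replicate 2 the difference was 1.04 (adjusted p = 0.358). A second probe set of Zfp704 gave -1.41 in vivo and -0.21 in vitro, neither called. Abundant members with smaller rises were Zfp131, at 1.57 and 1.38, and Zfp616, at 1.90 and 1.93. The in vitro call of Zfp131 had an adjusted p of 0.0504 without adult in vitro replicate 2.

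Members that silence retrotransposons or guard imprinted regions did not move as one. Of the 6 listed, all were members, and 1 was higher and 1 lower in vivo, with 1 higher and 2 lower in vitro. Over 12028 genes with 1 probe set each, 18.3% were higher and 12.3% lower in vivo, and 18.4% and 12.9% in vitro. This and the later role lists are short, so their counts are not read as results about the lists. Zfp932, which represses endogenous retroviruses in mouse embryonic stem cells, was at 8.36, 8.00 and 8.38 in vivo and 7.98 and 8.31 in vitro, against 10.50 and 10.14 in GV oocytes. It fell by 2.07 in vivo (SE 0.34, adjusted p = 0.000405) and by 2.18 in vitro (SE 0.37, adjusted p = 0.000566), and was lower under all 3 scalings. Zfp708, which binds a family of retrotransposons in the mouse, was instead higher, at 9.56, 8.11 and 8.29 in vivo and 8.81 and 9.92 in vitro, against 6.36 and 6.51 in GV oocytes. Its differences were 2.22 (adjusted p = 0.00455) and 2.93 (adjusted p = 0.00124), with 1.10 (adjusted p = 0.103) in vivo under median scaling.

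Zfp809, which starts the silencing of murine leukaemia virus DNA, was at 5.04, 4.42 and 4.47 in vivo and 2.99 and -0.93 in vitro, against 4.76 and 4.66 in GV oocytes. Its difference was -0.07 in vivo (adjusted p = 0.976) and -3.68 in vitro (adjusted p = 0.0291). That fall rested on the dim adult in vitro array, without which it was -1.72 (adjusted p = 0.324), and it had an adjusted p of 0.122 and 0.117 without GV replicates 1 and 2. Zfp445, which maintains imprints in mouse and human, was at 8.90, 8.03 and 8.26 in vivo and 8.60 and 8.78 in vitro, against 8.68 and 8.36 in GV oocytes. It differed by -0.12 (95% interval -1.002 to 0.75) and 0.17 (-0.79 to 1.13), neither called. Zfp568, which represses a placental Igf2 transcript in the mouse embryo, was at 7.13, 9.57 and 8.86 in vivo and 7.82 and 6.94 in vitro, against 6.99 and 7.07 in GV oocytes. The dim arrays were its lowest in both MII groups, and the in vivo difference of 1.49 (adjusted p = 0.145) became 2.18 (adjusted p = 0.0209) without the dim in vivo array. Zfp819, which acts on IAP elements in mouse pluripotent cells, differed by 0.49 and 1.24, neither called.

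The co-repressor machinery that KRAB members recruit was listed with 29 genes, of which 25 were tested. In vivo 4 were higher and 3 lower (28% called, against 26.8% of all tested probe sets), and in vitro 5 were higher and 3 lower (32%, against 27.7%). The list's median differences were 0.18 and 0.06, and those of all tested probe sets 0.24 and 0.13. Trim28 itself, the KAP1 scaffold, was at 10.05, 12.28 and 12.02 in vivo and 11.10 and 9.98 in vitro, against 11.21 and 11.19 in GV oocytes, and was called by neither route. Setdb1, its histone methyltransferase, was at 7.96, 9.17 and 9.44 in vivo and 8.16 and 7.13 in vitro, against 10.06 and 9.93 in GV oocytes, a difference of -1.13 (adjusted p = 0.112) and -2.35 (adjusted p = 0.00466). The de novo methyltransferases Dnmt3a (2.44 in vivo and 2.63 in vitro) and Dnmt3b (1.80 and 2.10) were higher, and the maintenance enzyme Dnmt1 was lower (-0.89 and -1.08). Morc3 (1.48 and 1.60) and Smarcad1 (1.03 and 0.97) were also higher, and Resf1 in vitro alone (1.06). Hdac1 was lower in vitro at -4.24, where it read 1.80 and -0.02, both under the threshold. Its -1.77 in vivo was not called, with readings of 0.66 on the dim array and 4.89 and 4.52 on the others. Atf7ip2 and Dnmt3l were lower in vivo, at -2.39 and -1.98, and their -2.04 and -1.56 in vitro were not called. The in vivo calls of Atf7ip2, Dnmt1 and Dnmt3l and the in vitro call of Smarcad1 had adjusted p from 0.0411 to 0.0489. The list was not refitted under other scalings or with arrays left out.

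Sequence-specific transcription factors and pluripotency regulators were represented by 11 of 15 listed genes. In vivo 2 were higher and 1 lower, and in vitro 3 were higher and 1 lower, with a list median of -0.28 and -0.31. Zfp296, a partner of KLF4 in mouse pluripotent cells, was at 7.95, 9.56 and 8.85 in vivo and 8.64 and 7.59 in vitro, against 11.33 and 11.41 in GV oocytes. It fell by 2.58 (SE 0.52, adjusted p = 0.00178) and by 3.25 (SE 0.57, adjusted p = 0.000667), with an in vivo adjusted p of 0.0604 for the intensities as deposited. Zfp148, which binds GC-rich promoters, was at 11.12, 9.34 and 9.53 in vivo and 10.69 and 11.56 in vitro, against 7.92 and 7.97 in GV oocytes. Its differences were 2.06 (adjusted p = 0.00818) and 3.18 (adjusted p = 0.000798). In vivo the call was lost without GV replicate 1 (adjusted p = 0.0584) or replicate 2 (0.0567), while 2 of 5 further probe sets were also higher in vivo, at 2.03 and 1.21.

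Zfp423, a cofactor of SMAD and EBF factors, was at 6.41, 6.35 and 7.21 in vivo and 7.41 and 7.93 in vitro, against 4.80 and 5.20 in GV oocytes. It differed by 1.65 (adjusted p = 0.015) and 2.67 (adjusted p = 0.00119), and the in vivo call was lost without adult in vivo replicate 3 (adjusted p = 0.0625), GV replicate 1 (0.134) or GV replicate 2 (0.0619). Zfp281, a pluripotency regulator, reached only an adjusted p of 0.0473 in vitro at 1.99, and its adjusted p ran to 0.28 without adult in vitro replicate 2. Without any one of 7 other arrays it lay between 0.0504 and 0.183. The other 7 listed members (Zfp217, Zfp263, Zfp335, Zfp384, Zfp410, Zfp462 and Zfp521) were called by neither route, with differences from -2.20 to 0.59 in vivo and -2.56 to 0.77 in vitro. Zfp410, which activates Chd4 in mouse and human cells, was at 4.66, 7.94 and 7.63 in vivo and 7.11 and 4.004 in vitro, against 6.67 and 5.63 in GV oocytes, low on both dim arrays.

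Members that act on RNA or on ribosomes numbered 8 of 8 listed, with 3 higher and 0 lower in vivo and 2 higher and 0 lower in vitro. Over all genes 18.3% were higher and 12.3% lower in vivo, and 18.4% and 12.9% in vitro. A list of 8 is too short to show a direction against these shares. Zfp106, an RNA-binding protein needed by motor neurons and muscle in the mouse, was at 9.97, 10.17 and 10.08 in vivo and 9.84 and 9.54 in vitro, against 8.43 and 8.14 in GV oocytes. The groups were tight, and the differences were 1.79 (SE 0.26, adjusted p = 0.000199) and 1.41 (SE 0.29, adjusted p = 0.00207), against 1.10 (adjusted p = 0.0943) and 0.42 (adjusted p = 0.589) under median scaling. A second, dimmer probe set of Zfp106 gave -1.38 and -1.96 and was not called. Zfp326, a subunit of the DBIRD complex that links elongation to splicing, was at 7.65, 6.41 and 6.55 in vivo and 7.33 and 7.81 in vitro, against 4.87 and 4.60 in GV oocytes. It differed by 2.14 (adjusted p = 0.008, or 0.0823 without GV replicate 2) and 2.84 (adjusted p = 0.00224).

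Zfp36, the CCCH protein tristetraprolin that destabilises AU-rich mRNA and not a C2H2 factor, was at 5.81, 6.74 and 6.34 in vivo and 6.28 and 5.94 in vitro, against 4.61 and 4.97 in GV oocytes. It differed by 1.50 (adjusted p = 0.0307) and 1.31 (adjusted p = 0.0806), and the in vivo call was lost without adult in vivo replicate 2 (0.101) or 3 (0.0718), or without GV replicate 1 (0.195) or 2 (0.102). Zfp598, the ubiquitin ligase that senses collided ribosomes, differed by 0.06 and -0.53, neither called. Zfp622, a factor of large ribosomal subunit maturation, differed by -0.42 and -1.03, and Zfp830, a spliceosome protein, by -0.70 and -1.32, also not called. A second probe set of Zfp830 was lower by both routes, at -3.22 and -2.39. Zfp346, a double-stranded RNA binder, and Zfp871 stayed uncalled, with differences of 0.79 and 0.22 in vivo and 0.35 and 1.17 in vitro.

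Spindle and protein-modification members were few, 3 of 4 listed. Zfp91, an atypical ubiquitin ligase, was at 9.39, 9.07 and 9.63 in vivo and 9.72 and 9.45 in vitro, against 8.40 and 8.56 in GV oocytes. It was higher by 0.89 (adjusted p = 0.0278) and 1.11 (adjusted p = 0.0132), but by 0.22 and 0.16, not called, under median scaling. Its calls were also lost without adult in vivo replicate 3 (adjusted p = 0.0962) in vivo, without adult in vitro replicate 1 (0.0741) in vitro, and without either GV replicate, at 0.169 and 0.0997 in vivo and 0.0873 and 0.0515 in vitro. Further probe sets of Zfp91 gave -0.70 and -0.74 (mean level 8.78) and 1.38 and 0.74 (mean level 4.57), none called. Zfp207 (BuGZ), a kinetochore and spindle protein, was at 4.78, 7.86 and 6.80 in vivo and 5.48 and 5.31 in vitro, against 7.17 and 7.15 in GV oocytes, and its -0.68 and -1.76 were not called. Zfp451, a SUMO ligase, was at 10.61, 10.41 and 10.35 in vivo and 10.27 and 10.50 in vitro, against 10.70 and 10.75 in GV oocytes. All 5 adult MII arrays lay below both GV arrays, by -0.26 and -0.34 on average, neither called.

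Of 6 genes listed for the germ line, 4 were members and 1 was called, Zfp39 as given above. Zfp318, first described in the testis, was at 8.25, 9.96 and 10.34 in vivo and 9.80 and 8.30 in vitro, against 8.26 and 8.28 in GV oocytes. Its 1.25 in vivo was not called (adjusted p = 0.114), became 1.86 (adjusted p = 0.00577) without the dim in vivo array, and was 2.25 (adjusted p = 0.000354) by another probe set of the gene. Zfp541, needed in mouse spermatocytes, ranged from -0.11 to 7.89 over all arrays, and Zfp35 differed by -1.72 and -0.76, neither called.

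Neighbouring Zfp genes were compared next, since the family lies in clusters. In the RefSeq gene order 99 members had another Zfp gene as a direct neighbour, and 16 of them were higher and 5 lower in vivo, against 22 and 10 of the other 107. In vitro 22 and 8 of the 99 were called, against 21 and 13. The shares over all genes were 18.3% higher and 12.3% lower in vivo, and 18.4% and 12.9% in vitro. The median difference was 0.49 with a Zfp neighbour and -0.01 without in vivo, and 0.66 and -0.14 in vitro.

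One run of 8 adjacent Zfp genes on chromosome 17 held 7 members. In vitro 6 of the 7 were higher than in GV oocytes: Zfp229 at 1.49, Zfp943 at 2.19, Zfp942 at 2.54, Zfp820 at 3.15, Zfp760 at 2.33 and Zfp995 at 2.77. In vivo 3 were higher, Zfp942 at 2.03, Zfp820 at 2.19 and Zfp760 at 2.37, and Zfp994 was called by neither route. Over all genes 18.4% were higher in vitro and 18.3% in vivo. At levels of 8 and above, 41.5% and 43% of all tested probe sets were. Zfp942 was at 8.80, 8.31 and 8.67 in vivo and 9.05 and 9.17 in vitro, against 6.67 and 6.47 in GV oocytes. Zfp820, whose upstream stretch is printed above, was at 8.91, 7.23 and 8.41 in vivo and 9.02 and 9.27 in vitro, against 6.05 and 5.93. The call of Zfp995 was lost without adult in vitro replicate 2 (adjusted p = 0.229), GV replicate 1 (0.146) or GV replicate 2 (0.0773). These genes may share probes or RNA signal, which was not tested, and the run was singled out after its values were seen. With the intensities as deposited none of the 6 was called, and in vitro Zfp229, Zfp943, Zfp942 and Zfp760 lay below 0, at -0.43, -0.45, -0.31 and -0.58.

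On chromosome 4, Zfp979 and Zfp982 rose by 2.27 and 2.62 in vivo and by 2.78 and 3.37 in vitro, while another member of their run of 9, Zfp991, differed by 0.31 and 0.69 and was not called. Zfp979 was at 11.50, 10.22 and 10.47 in vivo and 10.77 and 11.70 in vitro, against 8.57 and 8.34 in GV oocytes, and its rise was also called under median scaling, at 1.73 and 2.13. Other runs were mixed. In one of 4 genes Zfp472 was lower by both routes and Zfp952 in vivo, while Zfp563 was higher in vitro at 1.91 (-0.85 as deposited). In one of 10, Zfp235 was higher, at 2.11 and 1.92 (in vitro -0.9996 as deposited), and Zfp108 lower.

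**Figure D5:**
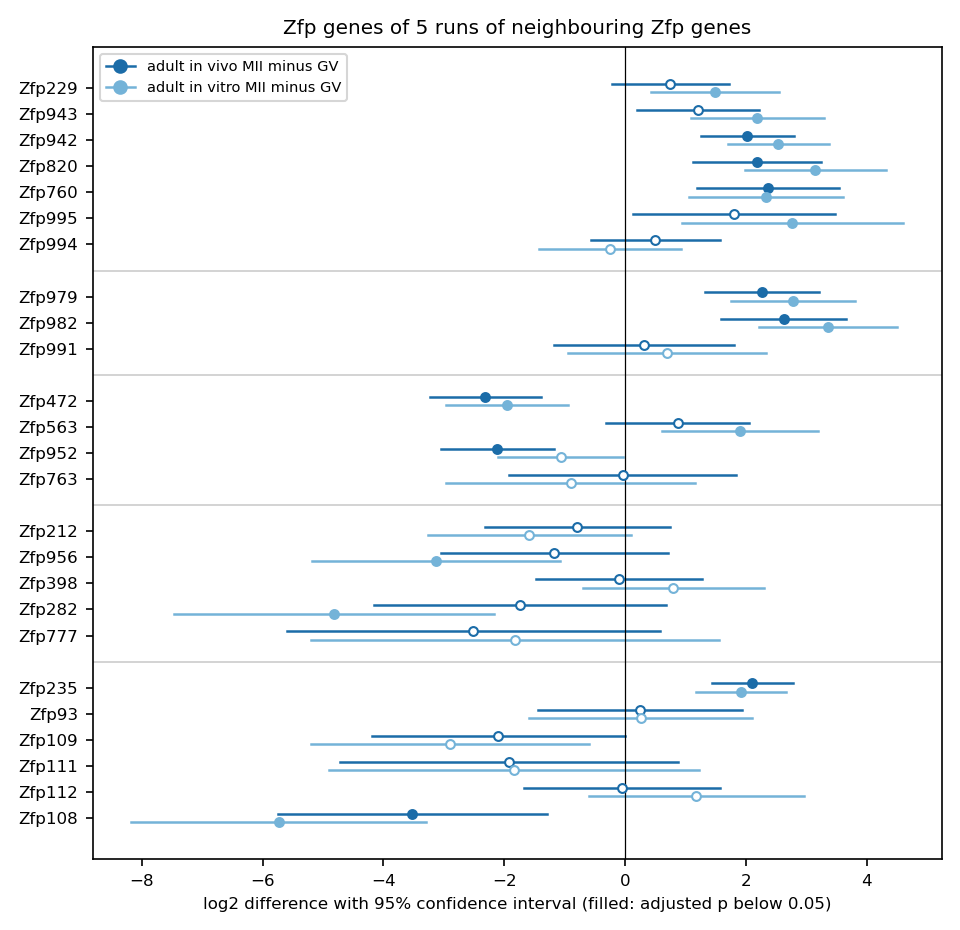
Log2 difference of adult in vivo and in vitro MII minus GV oocytes (horizontal, with 95% confidence intervals) for the members of 5 runs of neighbouring Zfp genes (vertical, a block per run). The first 2 blocks hold Zfp820 and Zfp979 and lie mostly right of 0 under quantile scaling, and the other blocks hold genes on both sides.

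The route of maturation changed no Zfp gene past the threshold. In adults 0 of 206 members were called between in vivo and in vitro MII oocytes, against 0.00444% of all tested probe sets. At d26 there were 0, against 0.04%, and over both ages 0, against 0.226% (0.195% higher and 0.0311% lower in vivo). Unadjusted p below 0.05 was reached by 13 members in adults, 8 at d26 and 27 over both ages, 7 of the 27 higher and 20 lower in vivo. Over both ages the smallest p belonged to Zfp574, which averaged -0.86 in vivo minus in vitro (95% interval -1.33 to -0.38, adjusted p = 0.152). It was at 6.72, 7.24 and 7.31 in vivo and 8.05 and 7.86 in vitro in adults, and 6.78 and 7.34 in vivo and 8.11, 7.77 and 7.83 in vitro at d26. All in vivo arrays lay below all in vitro arrays at either age, but as deposited, without scaling, the mean difference was 0.27.

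Zfp952 followed, at 5.15, 4.54 and 5.12 in vivo and 5.68 and 6.28 in vitro in adults, and 4.47 and 4.38 in vivo and 5.52, 5.54 and 6.12 in vitro at d26. Its mean difference was -1.17 (95% interval -1.84 to -0.51, adjusted p = 0.161). Zfp946 differed by -1.11 over both ages (adjusted p = 0.294). In adults the smallest p-values were those of Zfp809 at 3.61, Zfp128 at 2.02 and Zfp810 at -1.88, with adjusted p from 0.425 to 0.502. At d26, Zfp580 followed Zfp952 and Zfp574, at -2.19 (adjusted p = 0.654). At d26 the ratio of 3′ to 5′ Gapdh signal, a sign of RNA or amplification quality, was 82.3 and 68.0 in vivo and 12.6, 16.5 and 26.8 in vitro. Its part in these values was not tested.

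Whether the effect of route depended on age was asked of 206 members and found in none (0% of all tested probe sets), with 4 at an unadjusted p below 0.05. Zfp809 gave the smallest p, with a d26 minus adult difference of -5.19 (95% interval -8.43 to -1.96, adjusted p = 0.9999). This rests on readings of -0.93 in adult in vitro and 1.63 in d26 in vivo oocytes, both under the threshold. Zfp958 differed by 1.95 the other way.

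Age likewise moved no member past the threshold among in vitro matured oocytes. Between d20 and adult oocytes 0 members were called, against 0.0222% of all tested probe sets (0.0178% higher and 0.00444% lower), with 23 higher and 22 lower at an unadjusted p below 0.05. Between d26 and adult oocytes 0 were called, against 0.00444%, with 8 at that p, and between d20 and d26 oocytes 0, against 0%, with 22. Zfp282, a repressor named in human cells for a viral promoter it binds, was at 5.93, 5.37 and 5.26 in d20 and 5.19, 3.28 and 4.72 in d26 oocytes, against -0.34 and 0.03 in adult in vitro MII oocytes. Adults were thus at the bottom of the scale, and d20 minus adult was 5.68 (95% interval 3.26 to 8.09, adjusted p = 0.0918). Adult in vivo MII oocytes read -0.11, 4.54 and 4.34 for the same gene, so the low readings were on 3 of 5 adult MII arrays.

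Zfp820 had its lowest in vitro readings at d20. Its level was 6.51, 7.71 and 6.48 at d20, against 8.52, 8.78 and 8.51 at d26 and 9.02 and 9.27 in adults, with no overlap between d20 and either older group. The difference was -2.25 against adults (adjusted p = 0.106) and -1.71 against d26 (adjusted p = 0.402). All d20 readings of Zfp560 and Zfp451 likewise lay under those of adults. Zfp560 was at 7.69, 8.22 and 8.19 at d20, 8.80, 9.82 and 9.36 at d26 and 9.04 and 9.79 in adults, and Zfp451 at 9.34, 9.68 and 9.51 at d20, 9.87, 10.31 and 9.95 at d26 and 10.27 and 10.50 in adults. Their d20 minus adult differences were -1.38 (adjusted p = 0.173) and -0.88 (adjusted p = 0.148). Zfp239 differed by -1.91 between d20 and d26 (adjusted p = 0.414), and Zfp202 and Zfp524 by 3.02 and 3.03 between d26 and adult (adjusted p = 0.525 and 0.56). In simulated data for d20 against d26, the fit called 72.7% of probe sets given a log2 change of 4 and 38.8% of those given 2, so a difference near 2 between these ages would often be missed. Comparisons with adult in vitro oocytes were not simulated.

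Different probe sets of a gene did not always concur. For 64 members 87 further probe sets were tested. In vivo 9 of the 87 were called in the same direction as the gene's main probe set and 0 in the opposite one, 19 were called by the main one alone, 7 by the further one alone and 52 by neither. In vitro 7 were called in the same direction, 26 by the main one alone, 7 by the further one alone and 46 by neither, and the 1 opposite pair was Zfp655, whose second probe set was lower in vitro at -1.61 (adjusted p = 0.00761) where the main one was higher at 0.49 (adjusted p = 0.0416). The main call of Zfp655 was lost without any one of 11 arrays, with adjusted p up to 0.198.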

How the data were processed

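The authors deposited intensities on a linear scale for 15 Affymetrix arrays, and per the submitters' processing notes the software was MAS5. The sources used here give neither a version nor a scaling target. Replicates were not pooled: there is 1 column of intensities for each sample. Here log2 intensities were quantile-normalized without 64 control probe sets, which left 45037, and the 22519 with a mean at or above the median (3.07) were tested with limma 3.58.1 in R 4.3.3. The fit had 1 coefficient for each of 6 groups (9 residual degrees of freedom), an intensity trend in the moderated variances, and Benjamini-Hochberg adjustment over all tested probe sets in each comparison. Calls have an adjusted p below 0.05. The number of arrays limits the precision, and at most 0.00222% of values were identical between any 2 arrays. In simulated arrays, adult in vivo MII against GV recovered 72.7% of probe sets given a log2 change of 4, 22.4% at a change of 2 and 1.49% at a change of 1. There were 4 false calls among the unchanged probe sets. Only 66, 67 and 67 of the 22519 probe sets were given these changes, while 26.8% were called in the data. The adjustment was therefore stricter in the simulation, and these rates do not describe that comparison in the data.

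Members and lists were chosen with earlier results of these data known, so none is independent evidence. Named are the 10 largest rises and 10 largest falls against GV among calls of at least 1 on the log2 scale with no overlap between arrays, the 3 smallest p-values of each other comparison, the 5 highest means, the 3 on either side of the threshold, and the role lists. Beyond this, Zfp942, Zfp943, Zfp229, Zfp994, Zfp991, Zfp472, Zfp563 and Zfp235 were named after their values were seen. Gene names come from the platform annotation, and all 206 symbols are current in the GRCm38.p6 table, used for names and neighbours. Promoters are RefSeq's (Python 3.11.15, pandas 2.3.3). Alternatives were the intensities as deposited, median scaling, no filter, a pseudocount of 4, fits on the compared arrays alone or with no variance trend, the title number as a block of 2 levels, leaving out 4 dim arrays or each array in turn, and each gene's second probe set.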

Additional observations from a re-analysis of the deposited data

Results flagged for a closer look

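Zfp788 moved in opposite directions with the route of maturation at the 2 ages. At d26 it was at 3.78 and -0.28 in vivo and 4.16, 3.89 and 3.999 in vitro, so every in vivo array was below every in vitro array. In adults it was at 4.35, 3.90 and 3.69 in vivo and -0.34 and 3.61 in vitro, the other way round. The in vivo minus in vitro difference at d26 minus that in adults was -4.61. The interaction term had an unadjusted p of 0.017 and an adjusted p of 0.9999 over 22519 probe sets. The 2 lowest readings were 1 array in each age, both under the threshold of 3.07.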

How the results depend on the processing

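No paired analysis was possible because the replicate numbers used here only name the arrays and no label ties an array of one group to one of another. Counts of Zfp genes called against GV depended on scaling: with the intensities as deposited they were 0 higher and 29 lower in vivo and 0 higher and 58 lower in vitro, and with median scaling 9, 34, 15 and 42. The shares of all tested probe sets moved likewise, as given above. Without the 4 dim arrays 24 were lower in vivo and 35 in vitro, and 1 was higher in vivo than in vitro in adults, 2 in d20 than in adult oocytes and 1 in d26 than in adult oocytes. For the 64 genes with a second tested probe set, that probe set gave 8 higher and 6 lower in vivo (14 and 4 with the main one) and 5 and 7 in vitro (19 and 4). Leaving out each array gave 18 to 40 higher and 13 to 18 lower in vivo, and 25 to 46 higher and 13 to 24 lower in vitro. It gave 0 to 2 higher in vivo than in vitro in adults, 0 to 1 over both ages, 0 to 3 higher and 0 to 1 lower at d20 than in adults, and 0 to 2 higher at d26 than in adults. The lone array left in a group of 2 was then assumed to vary like the other groups. Without the 4 dim arrays the same holds for the single array left in adult in vitro and in d26 in vitro MII. No filter, the pseudocount, fits on the compared arrays alone, fits with no variance trend and the title number as a block left all counts within 1.5 times. Outside the 3 scalings, shares over all tested probe sets were not computed for these settings. Those counts are therefore not read as results about the members. The cause of these shifts was not tested.

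Signs turned for called rises and for uncalled differences alike: as deposited, 13 of 53 calls in vivo and 29 of 64 in vitro had the opposite sign, all of them rises. Among named genes as deposited, in vivo minus GV was -0.28 for Zfp281, -1.10 for Zfp410, -0.0093 for Zfp423, -0.35 for Zfp521, -0.38 for Zfp568, -0.75 for Zfp819, -0.0016 for Zfp36, -0.80 for Zfp346, -1.23 for Zfp598, -0.59 for Zfp871, -0.55 for Zfp91, -0.31 for Zfp318, -0.17 for Zfp664, -0.55 for Zfp383, -0.64 for Zfp579 and -0.087 for Zfp142. In vitro minus GV was -0.021 for Zfp758, -0.55 for Zfp281, -0.0064 for Zfp423, -0.96 for Zfp521, -2.29 for Zfp445 (adjusted p = 0.0321), -2.50 for Zfp568, -1.03 for Zfp819, -1.15 for Zfp36, -0.99 for Zfp106, -2.04 for Zfp346, -0.30 for Zfp871, -1.25 for Zfp91, -1.71 for Zfp318, -0.37 for Zfp655, -1.30 for Zfp664, -0.34 for Zfp131, -1.21 for Zfp383, -0.077 for Zfp616 and -1.38 for Zfp579. Other turns as deposited were 0.42 at d26 and 0.27 over both ages for Zfp574 by route, 0.55 for Zfp451 (d20 minus adult) and 0.35 for Zfp560 (d20 minus d26). Median scaling turned Zfp410 (-0.33), Zfp346 (-0.023) and Zfp598 (-0.46) in vivo, and Zfp445 (-0.88), Zfp568 (-1.09), Zfp346 (-0.63) and Zfp318 (-0.30) in vitro. The pseudocount turned Zfp541 (0.0021). Without dim arrays Zfp384 was 0.045, Zfp462 0.13, Zfp207 0.16, Zfp541 0.72 and Zfp383 -0.11 in vivo, and Zfp410 1.02, Zfp462 0.24, Zfp541 0.20, Zfp383 -0.073 and Zfp579 -0.53 in vitro. Leaving out each array, in vivo values spanned -0.59 to 0.044 for Zfp384, -0.98 to 0.10 for Zfp462, -1.37 to 0.17 for Zfp207, -0.57 to 0.70 for Zfp541, -0.12 to 0.30 for Zfp383, -0.0070 to 1.65 for Zfp410, -0.37 to 0.059 for Zfp445, -0.27 to 0.042 for Zfp809, -0.43 to 0.55 for Zfp598, -0.60 to 1.04 for Zfp871, -0.74 to 0.056 for Zfp335 and -0.36 to 0.80 for Zfp579. In vitro they spanned -0.64 to 0.0065 for Zfp384, -0.089 to 0.80 for Zfp568, -0.012 to 0.70 for Zfp664, -2.16 to 0.98 for Zfp410, -1.04 to 0.23 for Zfp462, -2.94 to 0.19 for Zfp541, -0.078 to 0.52 for Zfp383 and -0.54 to 0.80 for Zfp579.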

Other observations

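Members also differed in how much they varied over all 15 arrays, whatever the group. The smallest SD after Zfp655 (0.24) belonged to Zfp597 at 0.27 (range 7.94 to 8.94), Zfp236 at 0.28 (7.79 to 8.83), Zfp473 at 0.30 (7.32 to 8.32) and Zfp939 at 0.35 (6.96 to 8.03). Zfp473 is named in human cells for a role in histone mRNA processing. The largest SDs belonged to Zfp740 at 2.49 (-0.33 to 7.13), Zfp839 at 2.17, Zfp282 at 2.13, Zfp541 at 2.09 and Zfp703 at 1.96 (2.40 to 9.67). Of these 5, Zfp839 had both GV arrays above all MII arrays, and Zfp282 was lower in adult in vitro MII than in GV oocytes at -4.81 (adjusted p = 0.00887). The other 3 were called by neither route against GV. The 10 genes were taken by their SD after the values were seen.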
